A study of Mus musculus with 6 samples.

Results

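The core circadian clock genes are 10 genes that form the transcriptional loop of the daily clock and its best known output. They were chosen by symbol, as *Arntl*, *Clock*, *Per1*, *Per2*, *Per3*, *Cry1*, *Cry2*, *Nr1d1*, *Nr1d2* and *Dbp*, and all 10 were found among the 24015 genes counted in each library. RNA had been sequenced from the arcuate nucleus (ARC) of 6 adult female mice, labelled as a mixed background of CD-1, 129P2 and C57BL/6 (the study's methods name CD-1 and 129P2 for this line), 3 of them controls (Esr1fl/fl) and 3 of them mutants (Esr1fl/fl;Nkx2-1-Cre). All 6 carried the floxed *Esr1* alleles, and the mutants also carried a Cre recombinase driven by the *Nkx2-1* promoter, which removes estrogen receptor alpha (ERα) across the medial basal hypothalamus and not in the ARC alone. The ARC was cut out by hand. The study's methods give a range of several weeks for the age of the females, while its figure legend for the ARC profiling gives a single age. Neither the hour of collection nor the estrous stage is given in the sources used here. The levels below therefore show how alike the 6 females were in their clock transcripts, without a time axis to place them on.

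In the clock, BMAL1 (the product of *Arntl*) pairs with CLOCK and switches on genes that hold an E-box in their promoter, among them the *Per*, *Cry* and *Nr1d1* genes. PER and CRY proteins then return to the nucleus and inhibit BMAL1 and CLOCK, while the REV-ERB proteins (*Nr1d1*, *Nr1d2*) repress *Arntl* through the RRE, a site they share with the ROR receptors. *Dbp* encodes an activator that binds D-boxes and carries the rhythm to output genes. In many tissues *Arntl* and *Dbp* transcripts peak at nearly opposite times of day, so that samples taken at different hours tend to differ in both. The suprachiasmatic nucleus (SCN) holds the master clock, and the ARC keeps a clock of its own.

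Promoter stretches of these genes are shown, marked where they hold the letters of sites of the kinds through which the members of the loop act. RefSeq windows from 250 bases before to 50 bases after a start site were at hand for 9 of the 10 genes (*Per2* had no entry), 13 windows in all, and each of the 13 matched the NCBIM37 genome once. Capitals mark the E-box CACGTG, its variant CACGTT, the D-box TTATGTAA or TTACGTAA, the RRE core AGGTCA, or the reverse complement of one of these, with 25 bases on each side where the window before the start site allowed them.
*Per1*, chr11:68912260-68912344, plus strand: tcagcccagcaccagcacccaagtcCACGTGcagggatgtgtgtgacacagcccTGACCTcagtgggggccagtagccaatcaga
*Per3*, chr4:150418900-150419004, minus strand: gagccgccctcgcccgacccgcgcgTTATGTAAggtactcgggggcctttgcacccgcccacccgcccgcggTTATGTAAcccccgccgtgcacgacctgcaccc
*Cry1*, chr10:84647829-84647903, minus strand: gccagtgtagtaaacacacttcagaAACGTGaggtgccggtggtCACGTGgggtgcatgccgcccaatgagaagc
*Nr1d1*, chr11:98636692-98636744, minus strand: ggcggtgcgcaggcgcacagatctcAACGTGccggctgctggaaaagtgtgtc
*Nr1d2*, chr14:19071667-19071722, minus strand: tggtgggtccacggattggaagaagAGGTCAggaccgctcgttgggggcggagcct
*Per1* and *Cry1* held the full E-box, at 166 and 60 bases before the start site, and *Per3* held a pair of D-boxes, at 205 and 158 bases before it. *Cry2* held the E-box variant and *Clock* the RRE core. *Arntl* held the RRE core 32 bases after its start site, and *Dbp* held none of these letters in its window. *Per1*, *Clock* and *Arntl* had more than 1 window each, and not all of their windows held a match. Among 32851 mouse promoters of the same length, 7.15% held CACGTG, 4.68% held CACGTT, 1.06% held a D-box and 16.3% held AGGTCA on either strand, so a match, the RRE core above all, is a description and not a site in use.

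Total counts ran from 11792440 to 17877137 per library, at which 3 counts equal 0.174 to 0.247 CPM, the count scaled to the size of its library. *Esr1*, the gene targeted in the mutants, lay between 48.5 and 64.5 CPM in controls and between 7.06 and 11.8 CPM in mutants (log2 fold change -2.59, SE 0.18, adjusted p = 0.000884, edgeR), so every library matched its label. One library, Control 2, stood apart from the other 5 in markers of the pars tuberalis. This pituitary tissue lies beneath the ARC and has a strong rhythm of its own. Its markers summed to 7.91 CPM in Control 2 and to between 469 and 768 CPM in the others. Other libraries stood apart in markers of the ventromedial nucleus. *Fezf1* was at 1.14 CPM in Control 1 and between 9.9 and 52.3 CPM in the others. *Nr5a1* was at 0.365-fold of the other 5 in Control 1 and at 0.306-fold in Mutant 1. Values without Control 2 are given below where it moves a result. In bulk tissue such as this, fewer cells of a type and less RNA per cell cannot be told apart.

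None of the 10 core clock genes passed the test between mutants and controls, and 9 of the 10 had overlapping genotypes. With edgeR, 0 of 10 had an adjusted p under 0.05, against 0.118% of the 15236 genes tested, and 0 of 10 had an unadjusted p under 0.05, against 8.85% of all genes. DESeq2, which called 1.27% of its genes, and limma voom, which called 0.131%, also gave 0 of 10. The log2 fold change was positive for 4 genes and negative for 6, with a median of -0.087, beside 0.0036 over all genes tested. The test bounded the differences as well: over the 10 genes the 95% intervals of the mutant to control ratio reached from 0.698 (*Arntl*) to 1.78 (*Dbp*), and 1.31 was the highest upper bound among the other 9. All 3 mutants lay below all 3 controls for 1 of the 10 genes, *Clock*, where 7.88% of all genes did so, and for 0 of 10 they lay above, where 7.88% of all genes did. Without Control 2, 0 of 10 passed the test and 1 (*Per3*) had an unadjusted p under 0.05. Of all 15236 genes, 46 and 1187 did so. All 3 mutants then lay below both remaining controls for 2 of the 10 (*Clock* and *Per3*), beside 12.3% of all genes. The plot of levels by female shows the values.

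**Figure D1:**
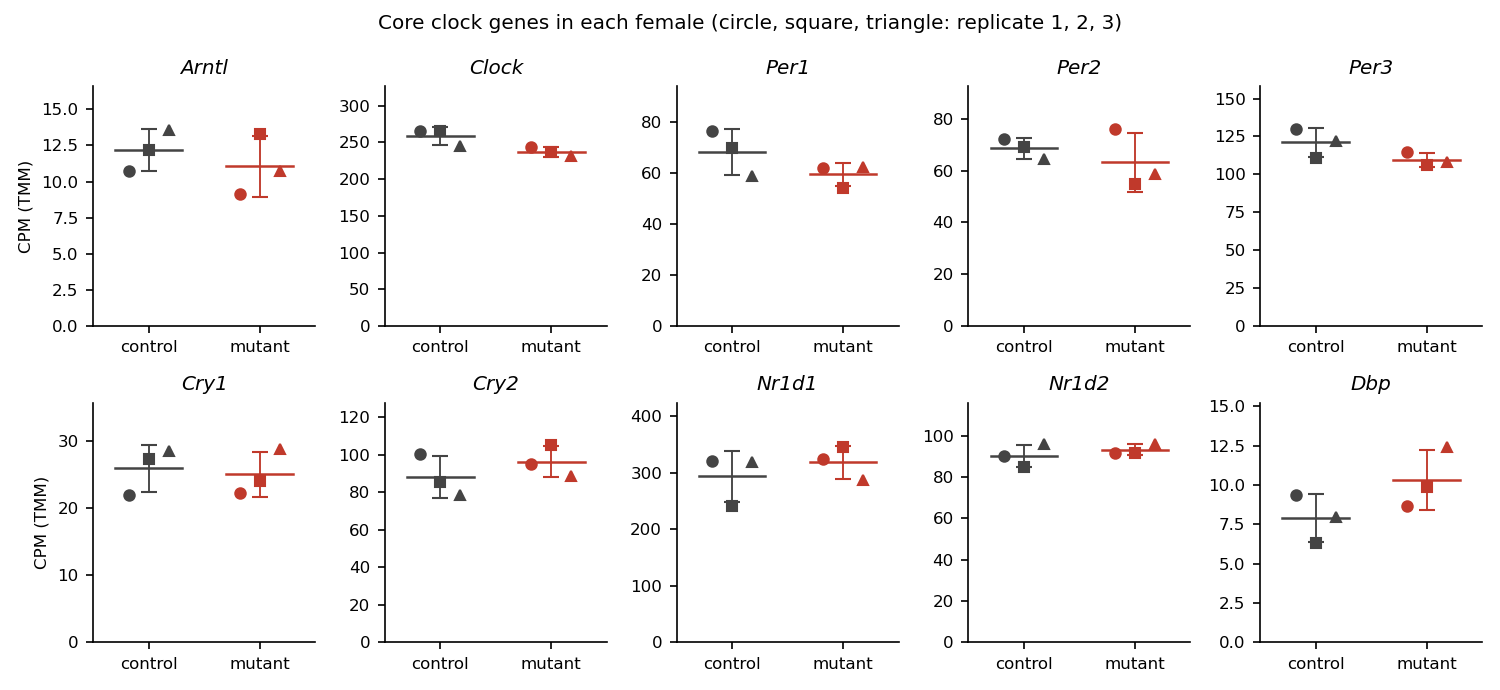
Level of each core clock gene in each female, in CPM after TMM scaling (vertical axis from 0), for 3 controls (grey) and 3 mutants (red); lines and bars are the mean and SD of 3. The genotypes overlap in every panel but *Clock*, where the mutants lie between 231 and 244 CPM and the controls between 245 and 266 CPM.

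The activators came first. *Clock*, the larger partner of BMAL1, is on chromosome 5 (NCBIM37, 76639992 to 76733817, minus strand). Its levels were 266, 265 and 245 CPM in Controls 1 to 3 and 244, 237 and 231 CPM in Mutants 1 to 3. The mutants were lower in 3 of 3 females, but the highest mutant and the lowest control were almost level. The means were 259 ± 12.1 and 237 ± 6.09 CPM (SD, n = 3 each), a log2 fold change of -0.13 (SE 0.075, 95% interval -0.29 to 0.042) with an adjusted p of 0.674. The exact permutation test of the means gave a two-sided p of 0.1, the smallest that 3 against 3 can give.

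*Arntl*, which encodes BMAL1, is on chromosome 7 (120350979 to 120457636, plus strand) and had a much lower level, 10.7, 12.2 and 13.6 CPM in controls against 9.16, 13.3 and 10.7 CPM in the mutants. Control 3 was the highest and Mutant 1 the lowest, and the genotypes overlapped. The means of 12.2 ± 1.45 and 11.1 ± 2.1 CPM (SD, n = 3 each) differed by a log2 fold change of -0.13 (SE 0.17, adjusted p = 0.880). *Arntl* rested on 111 to 212 counts per library, whose counting error alone is 6.87 to 9.49%, beside a coefficient of variation (CV, SD over mean) of 14.8% over the 6 females.

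The repressors of the PER family showed small negative differences with no call. *Per1*, the member that light and glucocorticoids induce fastest, is on chromosome 11 (68908719 to 68923462, plus strand) and measured 76.3, 69.7 and 58.6 CPM in controls, beside 62.0, 54.2 and 62.1 CPM in mutants. Controls 1 and 2 were above every mutant and Control 3 lay among them. The log2 fold change was -0.20 (SE 0.11, 95% interval -0.45 to 0.048, adjusted p = 0.654), the largest negative value among the 10 genes.

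*Per2*, whose protein is a main partner of CRY, is on chromosome 1 (93312561 to 93355907, minus strand). It measured 72.4, 69.2 and 64.4 CPM in controls and 76.1, 54.7 and 58.9 CPM in mutants. Mutant 1 was the highest of all 6 and Mutants 2 and 3 were the lowest, so the mutants spread more widely than the controls (SD 11.3 against 4.04 CPM, n = 3 each). The log2 fold change was -0.12 (SE 0.12, adjusted p = 0.837).

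*Per3*, which is not essential for rhythms but follows them closely, is on chromosome 4 (150377761 to 150418774, minus strand). Its levels were 130.1, 111 and 122 CPM in controls and 115, 106 and 108 CPM in mutants, with Control 2 lying among the mutants. The log2 fold change was -0.14 (SE 0.085, adjusted p = 0.673). Both D-boxes printed above belong to this gene. Its level had r = -0.19 with that of the D-box activator *Dbp* over 6 females (two-sided exact permutation p = 0.711), and r = -0.55 without Control 2. Any action of *Dbp* on *Per3* was not tested.

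The cryptochromes, the strongest inhibitors of BMAL1 and CLOCK, had small differences of opposite sign. *Cry1* on chromosome 10 (84594447 to 84647799, minus strand) was at 22.0, 27.3 and 28.5 CPM in controls and 22.2, 24.1 and 28.8 CPM in mutants, the same range in both genotypes. Its log2 fold change was -0.052 (SE 0.14, adjusted p = 0.953), and the sign turned when Control 3 (0.021) or Mutant 1 (0.025) was left out. *Cry2* on chromosome 2 (92243803 to 92274200, minus strand) was at 100.1, 85.6 and 78.2 CPM in controls and 94.7, 105 and 88.7 CPM in mutants. Its log2 fold change was 0.13 (SE 0.11, adjusted p = 0.793), and Control 1 lay within the mutants' range.

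The REV-ERB genes close the second loop. *Nr1d1*, which encodes REV-ERBα, is on chromosome 11 (98629246 to 98636647, minus strand), and its levels were 319.9, 241 and 319 CPM in controls and 324, 345 and 287 CPM in mutants. The other 5 libraries were between 287 and 345 CPM, all above Control 2. The log2 fold change of 0.12 (SE 0.12, adjusted p = 0.836) was -0.0031 without Control 2. *Nr1d2*, which encodes REV-ERBβ, is on chromosome 14 (19036568 to 19071641, minus strand) and was the steadiest of the 10, at 89.9, 84.9 and 95.8 CPM in controls and 91.5, 91.7 and 96.1 CPM in mutants. Its CV of 4.53% was lower than that of all but 4.30% of the genes tested, and its log2 fold change was 0.046 (SE 0.081, adjusted p = 0.914).

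*Dbp*, the output gene, had the largest difference and the largest spread. It is on chromosome 7 (52960458 to 52965525, plus strand) and measured 9.38, 6.34 and 7.96 CPM in controls, beside 8.66, 9.86 and 12.4 CPM in mutants. Mutants 2 and 3 were above every control, while Mutant 1 lay below Control 1. The means were 7.89 ± 1.52 and 10.3 ± 1.90 CPM (SD, n = 3 each), and the log2 fold change was 0.39 (SE 0.20, 95% interval -0.054 to 0.83), with an unadjusted p of 0.0791 and an adjusted p of 0.609 from edgeR. It was 0.25 without Control 2. *Dbp* rested on 105 to 186 counts per library, a counting error of 7.33 to 9.76%, and its CV over the 6 females was 22.3%, at the 74.9th percentile of all genes tested. In the plot of fold changes it stands to the right of the other 9.

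**Figure D2:**
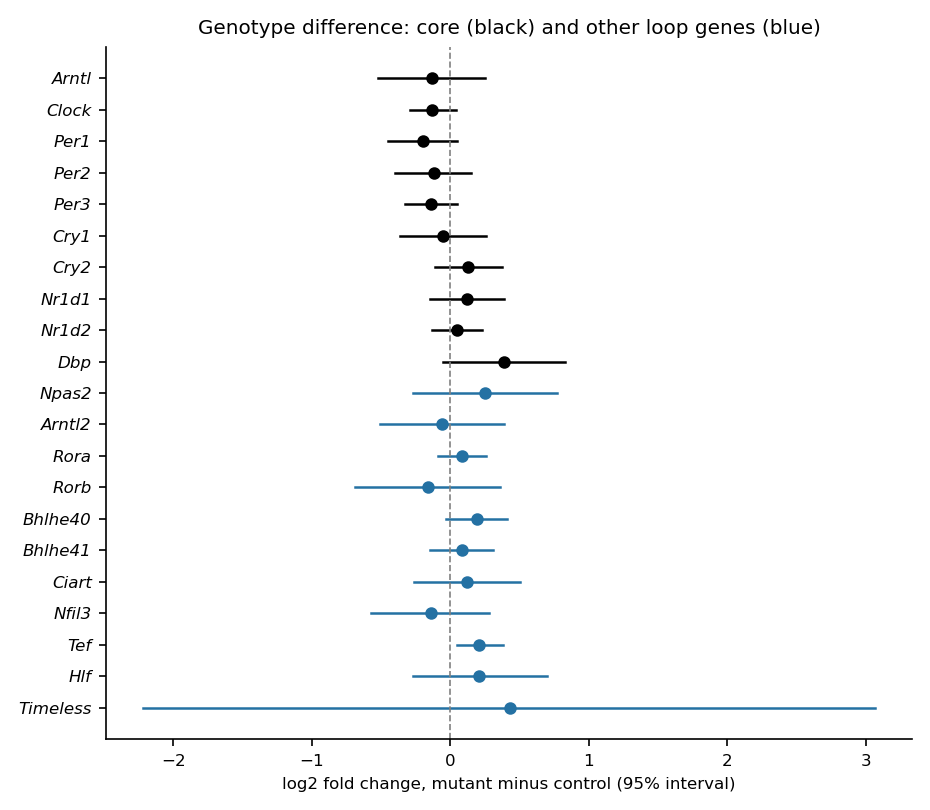
Log2 fold change, mutant minus control (horizontal axis), with the 95% interval from edgeR, for the 10 core clock genes (black) and 11 of the 12 other transcription factors of the loop and its output (blue); the dashed line marks no difference. Every core gene's interval crosses 0, and among the others that of *Tef* (0.049 to 0.38) does not.

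The exons of 3 of the 10 genes overlap those of a gene on the opposite strand. For *Dbp* the overlap with *Sphk2* covers 491 bases, 16.7% of its exon length. For *Nr1d1* the overlap with *Thra*, a thyroid hormone receptor gene, covers 263 bases (8.42%), and for *Cry2* that with D930015M05Rik covers 295 bases (4.67%). Whether the counting used strand is not given in the sources used here, so reads from these parts cannot be told apart.

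Per kilobase of exon, the levels were ordered as the plot of levels per exon length shows. *Nr1d1* was far above the rest, with a median of 102 CPM per kb and a range of 77.2 to 111, followed by *Clock* at 27.7 (26.2 to 30.2) and *Nr1d2* at 18.3 (16.9 to 19.2). *Cry2* (median 14.5), *Per3* (11.8), *Per2* (11.4) and *Per1* (11.0) came next, each overlapping its neighbour in range. *Cry1* stood alone at 8.52 (7.31 to 9.55), and *Arntl* (3.91) and *Dbp* (3.06) closed the order with overlapping ranges. By this measure, which depends on the annotated exon length, *Nr1d1* had the highest level of the 10 genes in these females. Any relation between the levels of *Nr1d1* and *Arntl* was not tested.

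**Figure D3:**
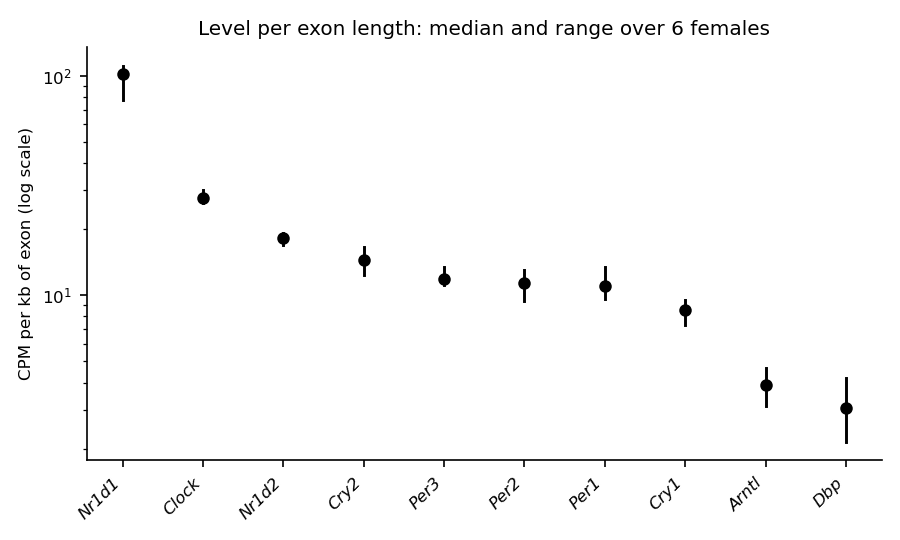
Level per kb of merged exons (vertical axis, CPM per kb, log scale) for the 10 core clock genes, as the median (point) and range (line) over 6 females. *Nr1d1* at 102 CPM per kb and *Clock* at 27.7 stand above the others without overlap, and *Arntl* and *Dbp* are lowest.

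Across the 6 females the core clock genes varied about as much as other genes. Their median CV was 12.1% (range 4.53 to 22.3%), beside 13.0% over all genes tested, and the median ratio of the highest to the lowest female was 1.37, beside 1.41. The largest such ratios were 1.95 for *Dbp* and 1.49 for *Arntl*, the pair with the lowest counts, and the smallest were 1.13 for *Nr1d2* and 1.15 for *Clock*. No female was highest or lowest throughout: Control 1 and Mutant 3 were highest for 3 genes each, and Control 2 and Mutant 2 were lowest for 3 genes each. Without Control 2 the median CV was 12.2% for the 10 genes and 12.2% for all genes tested.

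The genes were also averaged by the arm of the loop to which each was assigned from general knowledge of the clock, and not by the letters found in the windows above, in which *Cry1* held an E-box and *Nr1d2* an RRE core. *Cry2* was placed in neither arm. The arms were the E-box and D-box genes (*Per1*, *Per2*, *Per3*, *Nr1d1*, *Nr1d2*, *Dbp*) and the RRE genes (*Arntl*, *Clock*, *Cry1*), each as the mean deviation in log2 CPM from the 6-female mean. The E-box and D-box genes deviated by 0.12, -0.13 and -0.013 in Controls 1 to 3 and by 0.037, -0.045 and 0.03 in Mutants 1 to 3. The RRE genes deviated by -0.065, 0.095 and 0.13 in the controls and by -0.18, 0.023 and -0.0051 in the mutants. Both deviations had opposite signs in 6 of 6 females, with both signs in each genotype. They are small, the largest being 0.18, and with the E-box and D-box group reduced to the 3 *Per* genes the signs were opposite in 4 of 6. Without Control 2 they were opposite in 4 of 5. This count was made after the values were seen and carries no test.

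Relations of the other 9 genes to *Dbp* over the 6 females were computed as 9 comparisons with exact permutation p-values, two-sided. Pearson's r ran from -0.69 for *Clock* (Spearman's rho -0.66, p = 0.133 and 0.175 by exact permutation) to 0.70 for *Nr1d2* (rho 0.60, p = 0.117 and 0.242 by exact permutation). None passed: the lowest adjusted p was 0.6 for r and 0.725 for rho. *Arntl*, the gene in antiphase to *Dbp* in many tissues, had r = -0.25 (rho -0.20, exact permutation p = 0.656 and 0.714). Without Control 2 and Mutant 3, the females farthest from the median of *Dbp*, r became 0.067 for *Clock*, -0.78 for *Nr1d2*, -0.027 for *Arntl* and 0.081 for *Per1*, while it became 0.96 for *Cry2* (from 0.40), 0.71 for *Nr1d1* (from 0.47) and -0.63 for *Cry1* (from -0.037). For *Per2* and *Per3* it became -0.38 and -0.35. Without Control 2 alone, r was -0.47 for *Clock*, 0.24 for *Nr1d2* and -0.60 for *Nr1d1*. The 5 genes most like *Dbp* by Pearson's r in log2 CPM over the 6 females were *H2-Ke6* (0.987), *Cdc42ep2* (0.979), *Phyh* (0.978), *C1rl* (0.977) and *Egr4* (0.974). The core gene most like it, *Nr1d2*, ranked 1098th of 15235.

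The other genes of the clock were read from lists of 12 transcription factors and 10 kinases and ubiquitin enzymes. Of these 22 genes 0 had an adjusted p under 0.05, beside 0.118% of all genes tested. An unadjusted p under 0.05 was found for 1, *Tef*, beside 8.85% of all genes. *Tef*, a D-box activator of the same PAR bZIP family as *Dbp*, was at 104, 99.8 and 104 CPM in controls and 115, 123 and 118 CPM in mutants, with no overlap (log2 fold change 0.21, SE 0.075, adjusted p = 0.408, edgeR). *Bhlhe40*, an E-box repressor also known as DEC1, was at 156, 122 and 151 CPM in controls and 164, 164 and 159.7 CPM in mutants (log2 fold change 0.19, SE 0.10, adjusted p = 0.627), and 0.083 without Control 2. Both lay above the controls in 3 of 3 mutants, 2 of 12 transcription factors, beside 7.88% of all genes.

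Among the enzymes that set the stability of PER and CRY, 2 of 10 had all mutants below all controls, beside 7.88% of all genes. *Gsk3b*, a kinase that marks several clock proteins, was at 974, 1069.8 and 950.2 CPM in controls and 854, 911 and 894 CPM in mutants (log2 fold change -0.17, SE 0.083, adjusted p = 0.594). *Usp7*, a deubiquitinase, was at 187, 190.0 and 177 CPM in controls and 176, 174 and 176 CPM in mutants (log2 fold change -0.074, SE 0.072, adjusted p = 0.828). The median log2 fold change was 0.15 over the 12 transcription factors and -0.068 over the 10 enzymes. Without Control 2 these medians were 0.062 and -0.038.

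Because Control 2 stood apart in its pars tuberalis markers, its clock transcripts were set beside those of the other females. Against the mean of the other 5, Control 2 had *Nr1d1* at 0.758-fold and *Dbp* at 0.669-fold, at the 13.7th and 9.09th percentile of this measure over all genes tested. Other females lay at similar percentiles in some core genes, but each percentile is taken within that female, so it does not compare sizes. *Arntl* in Mutant 1 lay at the 7.46th percentile (0.763-fold). *Per2* and *Per1* in Mutant 2 lay at the 7.72th and 9.17th (0.805-fold and 0.829-fold). *Dbp* in Mutant 3 lay at the 95.6th (1.48-fold). Control 2 was below the others for 5 of the 10 core genes and above them for 5. For 9 of the 12 other transcription factors it was below, beside 49.3% of all genes tested. Mutant 2 was above the others for 10 of these 12, where 46.4% of all genes tested lay below. Some of the 12 are named here after their values were seen. *Timeless* was at 3.08 CPM in Control 2, at 48.4 and 40.6 CPM in the other controls and at 54.7, 42.7 and 25.8 CPM in the mutants. *Timeless* encodes a replication fork protein with a debated part in the mammalian clock. *Hlf*, the third PAR bZIP gene beside *Dbp* and *Tef*, was at 268 CPM in Control 2 and between 421 and 482 CPM elsewhere. *Rorb*, whose product activates through the RRE, was at 0.657-fold of the other 5, and *Rora*, of the same family, was at 0.939-fold.

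In the same library 6 of the 7 pars tuberalis markers tested were at 0.00773-fold to 0.242-fold of the other 5, and the other, *Timp1*, was at 1.15-fold, with a low level in every female (0.88 to 1.81 CPM). *Cga*, the alpha subunit of the pituitary glycoprotein hormones, was at 3.26 CPM in Control 2 and between 372 and 582 CPM in the other 5. *Tshb*, the thyrotropin beta subunit, was at 1.92 CPM there and between 70.6 and 140.2 CPM in the others. None of the 7 pars tuberalis markers tested had mutants all on one side of the controls, beside 7.88% of all genes on each side. With Control 2 so low in 6 of them, mutants could hardly lie below all controls. Without Control 2 their median log2 fold change went from 0.22 to -0.32, with 1 of 7 positive and 0 called. All mutants then lay below both remaining controls for 1 of 7, beside 12.3% of all genes. An unadjusted p under 0.05 from edgeR was found for 2 of 7, beside 1187 of 15236 genes. The part of this tissue in the levels of *Timeless*, *Hlf*, *Nr1d1* or *Dbp* was not tested. Without Control 2 the genotype difference in *Nr1d2* was 0.0043, and 0 of the 10 core genes passed the test.

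**Figure D4:**
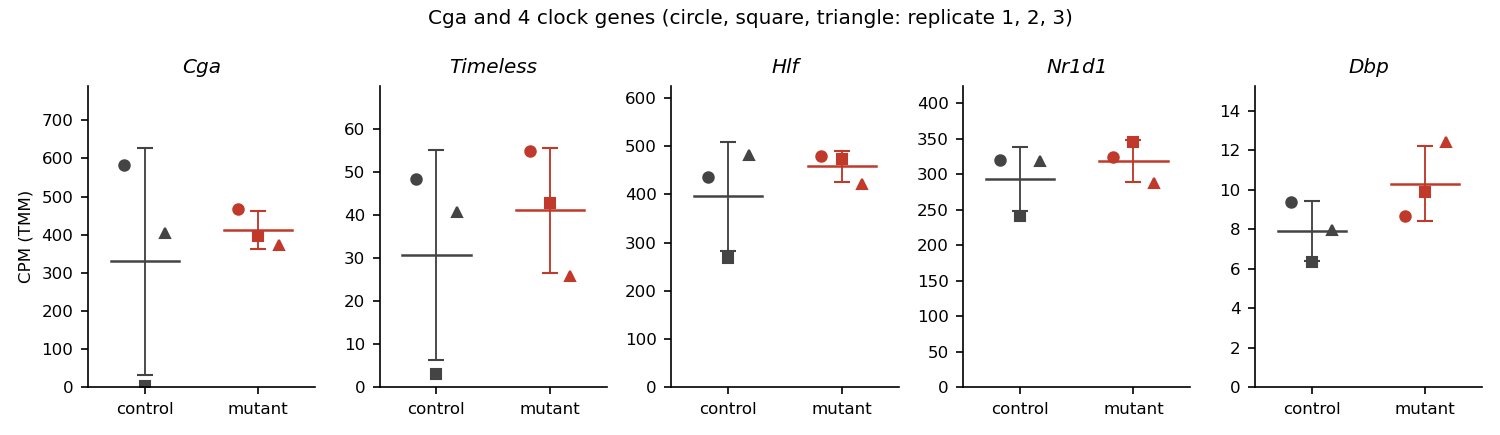
Levels (CPM, vertical axes from 0) of the pars tuberalis marker *Cga* and of *Timeless*, *Hlf*, *Nr1d1* and *Dbp* in 3 controls (grey) and 3 mutants (red); lines and bars are the mean and SD of 3. Control 2, the grey square, is the lowest point in all 5 panels, with *Cga* at 3.26 and *Timeless* at 3.08 CPM.

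**Figure D5:**
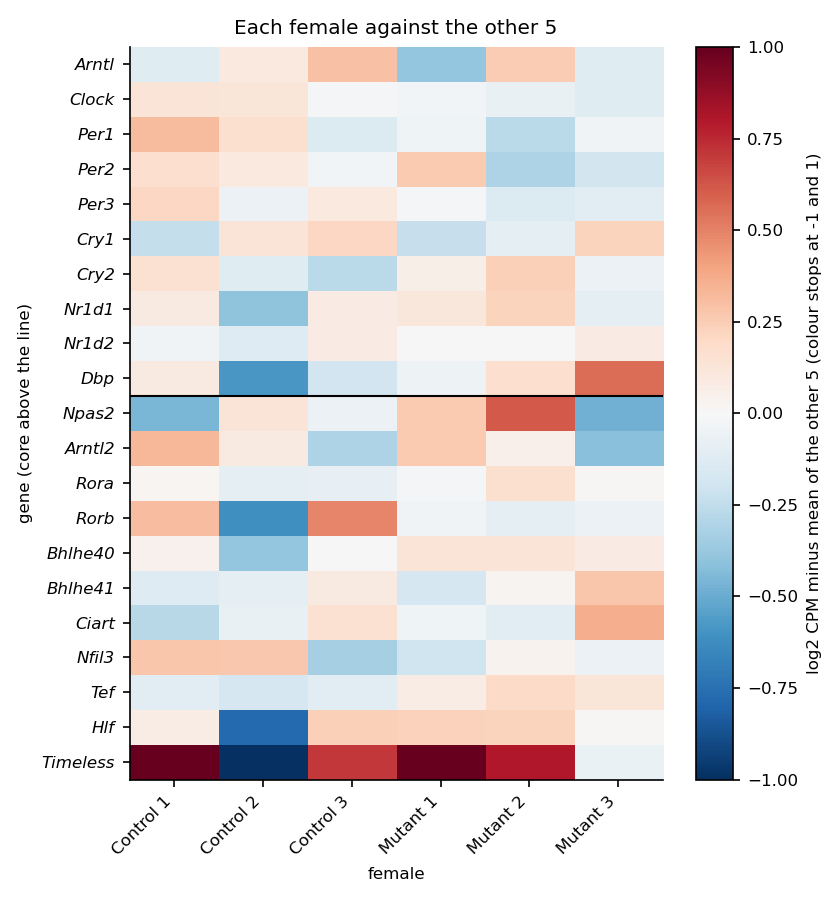
Log2 CPM of each female minus the mean of the other 5 (colour scale, stopping at -1 and 1) for the 10 core clock genes (above the line) and 11 of the 12 other transcription factors of the loop. The blue cells in the Control 2 column include *Timeless* (-3.68), *Hlf* (-0.78), *Rorb* (-0.61) and *Dbp* (-0.58), and the red cells of *Timeless* elsewhere follow from a mean that includes Control 2.

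Several stimuli act on *Per1* and *Per2* apart from the loop, and genes that answer to them were read beside the clock. The 11 immediate early genes, which neuronal activity induces, all had positive differences (median log2 fold change 0.91), 1 of them, *Dusp1*, passing the test (adjusted p = 0.031), where 0.118% of all genes passed, and for 6 of 11 all mutants were above all controls, where 7.88% of all genes were. Control 2 had the lowest summed level, and without it the median was 0.65, with 10 of 11 positive and 1 called. Their summed level was 338, 133 and 216 CPM in controls and 351, 325 and 529.7 CPM in mutants, whereas *Per1* was lower on average in mutants and highest in Control 1. *Fos* was at 13.0, 4.42 and 6.81 CPM in controls and 16.7, 22.0 and 39.2 CPM in mutants. The 10 glucocorticoid response genes had a median of -0.18 with 0 called (0.13 without Control 2, with 0 called), and their summed level was highest in Control 2 (335 CPM) and lowest in Control 3 (173 CPM). The 8 temperature response genes had a median of -0.19 with 0 called, and 1 of them was positive. That gene, *Cirbp*, had all mutants above all controls (log2 fold change 0.40), and *Hspa1a* had all mutants below (-0.62). Each is 1 of 8, beside 7.88% of all genes. An unadjusted p under 0.05 from edgeR was found for 2 of 8, beside 8.85% of all genes. The part of any of these stimuli in the level of *Per1* or *Per2* was not tested.

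Markers of the tissue that the dissection took were read beside the clock genes. Of 10 SCN markers 9 were tested and 0 called, their summed level lay between 137 and 177 CPM over all 6 females, and *Vip*, which marks the SCN core, was between 0.0666 and 1.98 CPM. The sum rests on *Six6*, *Syt10* and *Gpr176*, and it does not show the other markers: 4 of the 9 tested had an unadjusted p under 0.05, beside 8.85% of all genes. *Prok2*, a rhythmic output signal of the SCN, was at 4.15, 6.52 and 4.52 CPM in controls and 1.73, 0.628 and 1.47 CPM in mutants (log2 fold change -2.01, SE 0.37, adjusted p = 0.0706). *Grp*, a peptide of the SCN core, was at 1.47, 2.62 and 1.72 CPM in controls and 6.6, 4.52 and 3.73 CPM in mutants (log2 fold change 1.33, SE 0.32, adjusted p = 0.178). The 10 ARC markers were all present, with 0 called. They summed to 1113, 1108 and 1039 CPM in controls and 1700.3, 1173 and 1279 CPM in mutants. Of the 10, 9 had a positive difference (median log2 fold change 0.34). For 3 of 10 (*Cartpt*, *Tac2* and *Kiss1*) all mutants were above all controls, beside 7.88% of all genes. Without Control 2 this held for 5 of 10, beside 12.3% of all genes, with a median of 0.43. Markers of the ventromedial nucleus summed to 95.6, 210.4 and 152 CPM in controls and 113, 258 and 321 CPM in mutants. The sum does not show that they differed in sign. Of the 6 tested 0 were called, and 5 had a positive difference. The other 1, *Tac1*, had all mutants below all controls (log2 fold change -0.55, adjusted p = 0.355, edgeR), beside 7.88% of all genes. The 8 oligodendrocyte markers were higher in all mutants than in all controls (8 of 8, median log2 fold change 0.96, 1 called, *Cldn11*, adjusted p = 0.031), beside 7.88% of all genes above and 0.118% called, with summed levels of 676 to 1269 CPM in controls and 1663 to 1793 CPM in mutants. Without Control 2 their median was 1.26, with 7 of 8 called, where 46 genes of 15236 were called. Astrocyte, microglia and endothelial markers, 6 genes each, had 0 called, with mutants all above controls for 0, 2 and 1 of them, beside 7.88% of all genes. The part of these shifts in the levels of *Clock*, *Dbp* or *Tef* was not tested.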

How the data were processed

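Single-end reads from 6 ARC libraries, amplified from total RNA, had been aligned with TopHat2 2.1.0 and counted per gene with HTSeq 0.6, and the authors deposited the raw counts per gene, 1 table per female. The submitters' notes name build mm9 and DESeq2 1.14.1, while the study's methods name the build differently. Gene positions come from the NCBIM37 annotation.

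The deposited counts were tested with edgeR 4.0.16 (R 4.3.3) by its quasi-likelihood test with TMM scaling, filterByExpr (15236 genes kept, 8779 not) and Benjamini-Hochberg adjustment over all genes tested, threshold 0.05. CPM are TMM-scaled, and log2 CPM add a prior count of 2. Alternatives were DESeq2 1.42.0, limma 3.58.1 (voom), RLE scaling, plain CPM, other count filters, a replicate block and each female left out. The fits were tested on simulated data. Correlations and single values used exact permutation.

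Depth was 11792440 to 17877137 counts. Counting errors and the limit of 3 counts cover counting error only. Replicate libraries differed by more than sampling noise (chi-square per degree of freedom 6.93 to 21.8). The samples are separate females. The edgeR p-values set the genotype difference against the spread between females, estimated with information shared over genes. The exact permutation p-values come from reordering the females.

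The members and lists were chosen with earlier results of these data known. Named genes were all 10 members with every sample, those of the other clock lists past the threshold or with genotypes that did not overlap, the highest genes of each other list, *Esr1*, and the 5 genes most like *Dbp*. Others (*Timeless*, *Hlf*, *Rora*, *Rorb* and single genes of the stimulus and marker lists) were named after their values were seen. The values of 1 of the 12 other transcription factors are not reported here, though it stays in the counts of its list.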

Additional observations from a re-analysis of the deposited data

How the results depend on the processing

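The 10 core clock genes stayed short of the threshold under all settings run: in 120 refits over RLE scaling, DESeq2, limma voom, both other filters, the replicate block and each female left out, adjusted p ran from 0.461 to 1.0 and 117 kept the sign. The exceptions were *Cry1*, whose log2 fold change ran from -0.17 to 0.025 with each female left out (positive without Control 3, 0.021, or Mutant 1, 0.025), and *Nr1d1*, which ran from -0.0031 (without Control 2) to 0.19. *Tef*, *Bhlhe40*, *Gsk3b* and *Usp7* kept their sign and stayed short of the threshold in 48 of 48 refits. The number of genes past the threshold in the whole table did depend on the setting: 18 in the main analysis, 191 with DESeq2, 106 with genes kept at 1 count in any library, and 7 to 46 with each female left out, with the highest without Control 2 and the lowest without Mutant 3. A replicate block in the fit gave 123 (69 higher, 54 lower in mutants, against 9 and 9), with 0 core clock genes. Whether the numbers pair the females is not given by the labels. Same-numbered libraries correlated in their deviations at 0.281, 0.0466 and -0.00264, and the other pairs at -0.263 to 0.21. With 3 females per genotype these values cannot decide it. The cause of the shifts in the number of genes past the threshold was not tested. In values added after the data were seen, leaving out Control 2 turned the sign of r with *Dbp* for *Per1* (0.031), *Cry1* (0.29) and *Nr1d1* (-0.60). Depth limits *Arntl* and *Dbp* most, at 105 to 212 counts per library.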
